A study of Mus musculus with 6 samples.

Results

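The genes described are 10 regulators and targets of the integrated stress response that lie outside amino acid metabolism: Atf4, Ddit3, Trib3, Atf3, Chac1, Ppp1r15a, Ppp1r15b, Sesn2, Eif2ak4 and Cebpb. They were chosen by symbol, and all 10 were found among the 25865 genes of the deposited table. RNA was sequenced from group 2 innate lymphoid cells (ILC2s), lymphocytes of mucosal tissue that make type 2 cytokines, sorted from the large intestine of C57BL/6 mice. Both groups were first kept in culture for 5 days with 10 ng/mL each of the cytokines IL-33, IL-25, IL-7 and IL-2. The 3 toyocamycin samples then received the adenosine analogue toyocamycin for 16 h, and the 3 Control samples received vehicle. Toyocamycin blocks ribosomal RNA processing and the cleavage of Xbp1 mRNA by the stress sensor IRE1. No source used here gives the dose, the age of the mice or whether replicates came from separate cultures or animals. The p-values therefore reflect the spread among these 6 samples alone, and that spread may be technical.

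In the integrated stress response, 4 kinases sense amino acid shortage (GCN2, encoded by Eif2ak4), unfolded proteins in the endoplasmic reticulum (PERK), double-stranded RNA (PKR) or haem shortage and mitochondrial stress (HRI). Each phosphorylates the translation initiation factor eIF2α, which slows most protein synthesis but allows translation of Atf4 mRNA through its upstream reading frames. The transcription factor ATF4 then switches on stress genes, among them Ddit3, which encodes CHOP, and Ppp1r15a, whose product GADD34 restores eIF2α to its unphosphorylated state. ATF4 is controlled largely at translation, so the level of its mRNA is not a measure of its protein.

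Values are normalised read counts, that is reads per gene divided by a size factor for each sample, at 22.3 M to 36.7 M reads per sample. Counts per gene in a bulk sample do not separate fewer cells of a type from less RNA per cell. All 12 ILC2 markers examined, Gata3, Il1rl1 and Il13 among them, were above the detection floor of 3 reads (2.54 to 3.96 normalised reads) in every sample, and 4 were higher and 7 lower with toyocamycin by limma. Their summed level ran from 425665 to 438269 in Control and from 358134 to 389111 with toyocamycin. Summed markers of several other cell types also moved with treatment, without overlap between groups. They were lower with toyocamycin for NK cells and ILC1s (157 to 226 in Control, 29.6 to 46.2 with toyocamycin), B cells (365 to 470, 187 to 221), epithelial cells (390 to 402, 259 to 289) and fibroblasts and endothelium (1371 to 1609, 775 to 1127). The only markers called within these lists (limma), all lower, were Prf1 for NK cells and ILC1s, Cd79b for B cells and Lgals4 for epithelial cells. For fibroblasts and endothelium they were Col1a2 and Pecam1. The sum for NK cells and ILC1s was nearly all Prf1 (193.6 ± 35.5 in Control, 36.9 ± 6.29 with toyocamycin; SD, n = 3). Summed markers of mast cells were higher (29290 to 30748, 43106 to 46748), nearly all from Kit, with Fcer1a at 0 in every sample. Of the 3 mast cell markers tested, Kit was called higher and Cpa3 lower (limma). Cpa3 was near the floor, with 8, 4 and 11 reads in Control and 2, 2 and 0 with toyocamycin. Sums for T cells (190 to 217, 194 to 240) and ILC3s (187 to 207, 168 to 199) overlapped, but markers within them moved in both directions. Among T cell markers Cd3d and Cd3e were called lower and Cd3g higher (limma). Cd3d had 4, 12 and 6 reads in Control and 2, 0 and 0 with toyocamycin, below the floor in each toyocamycin sample. Cd3e had 38, 41 and 40 reads in Control and 4, 4 and 8 with toyocamycin. Cd3g went from 148.7 ± 13.6 to 198.7 ± 31.4 normalised reads (SD, n = 3). Among ILC3 markers Il22 was called lower (105.1 ± 10.2 in Control, 39.8 ± 10.4 with toyocamycin) and Il17a higher (79.5 ± 4.55, 142.8 ± 12.3; SD, n = 3). The part of such cells in the results for the 10 genes was not tested. Within each group the sample numbered 3 differed most from the other two, with a chi-square per degree of freedom of 7.76 and 7.37 in Control, against 3.96 between Control replicates 1 and 2, and of 6.07 and 6.75 with toyocamycin, against 4.77.

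With the deposited scaling, the toyocamycin samples held 2.04-fold to 3.47-fold more transcript of Atf4, of both eIF2α phosphatase subunits and of Sesn2. They also held 9.52-fold more Cebpb, but 4.34-fold less Trib3 and 8.95-fold less Chac1. Ddit3 was 1.3-fold higher, and Atf3 and Eif2ak4 did not pass the test. A gene was called where limma gave an adjusted p below 0.05 (Benjamini-Hochberg, over 16223 genes), and by this rule 6 of the 10 genes were higher and 2 lower. Of all genes tested, 65.9% were called, 32.8% higher and 33.1% lower, so that 8 calls among 10 genes lie near the background. The 2 groups did not overlap in 8 of the 10 genes and in 69.1% of all genes. The median log2 change of the 10 genes was 0.70, beside −0.03 for all genes tested.

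**Figure D1:**
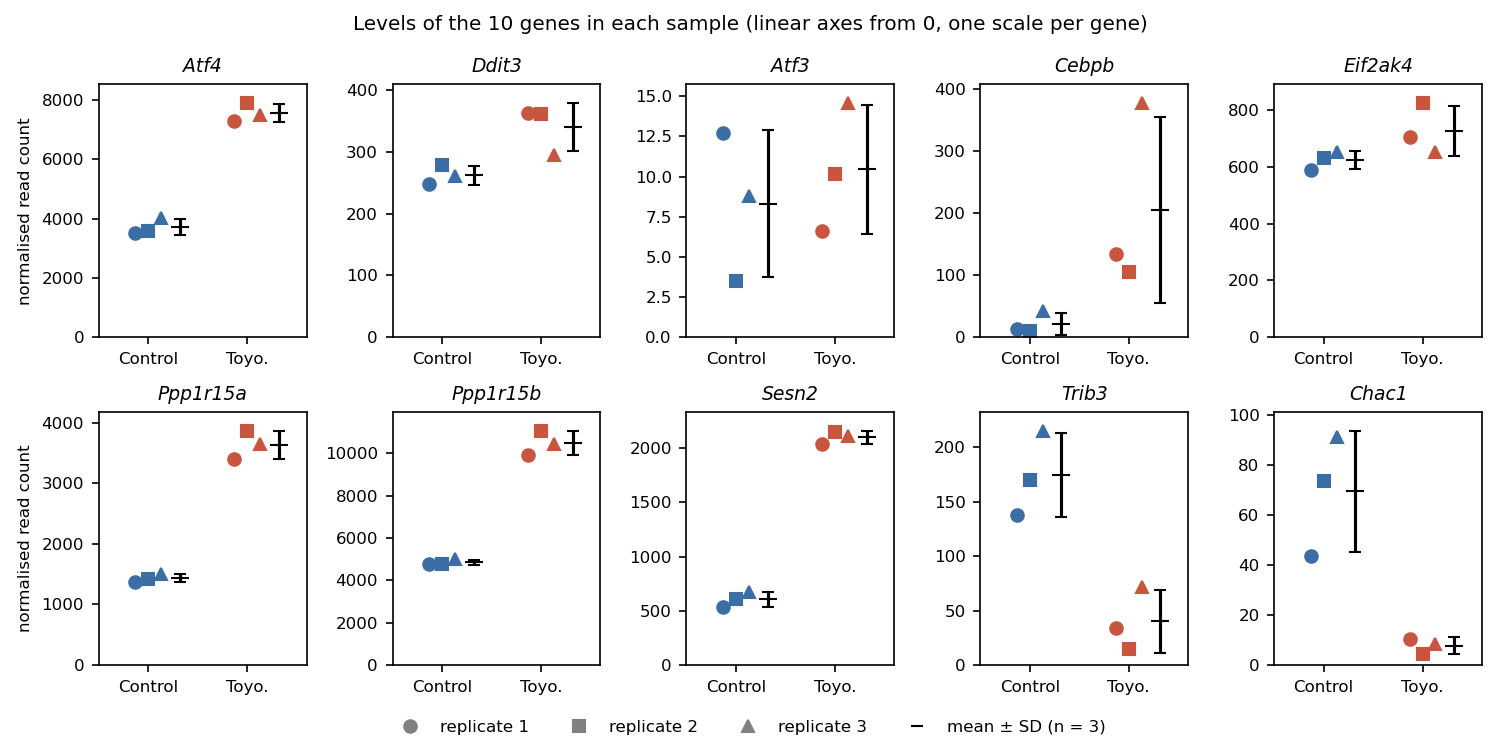
Normalised read counts (vertical axes, linear from 0, 1 scale per gene) of the 10 genes in the 3 Control and 3 toyocamycin samples, with the marker shape giving the replicate number and black bars the mean ± SD. Atf4, Ppp1r15a, Ppp1r15b and Sesn2 lie in tight groups that do not overlap, whereas Cebpb spreads from 104 to 376 with toyocamycin and Atf3 overlaps between groups.

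The scaling of the samples bears on these directions. When every sample was scaled to the same total, 4040 genes were called higher and 6897 lower in place of 5316 and 5374, and the median of all genes moved to −0.36. Seen that way, 5 of the 10 genes were higher and 2 lower, with a median of 0.37. Atf4, Ppp1r15a, Ppp1r15b, Sesn2 and Cebpb stayed higher and Trib3 and Chac1 lower under every alternative tried. The results of Ddit3 and Eif2ak4 crossed the threshold under some alternatives.

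**Figure D2:**
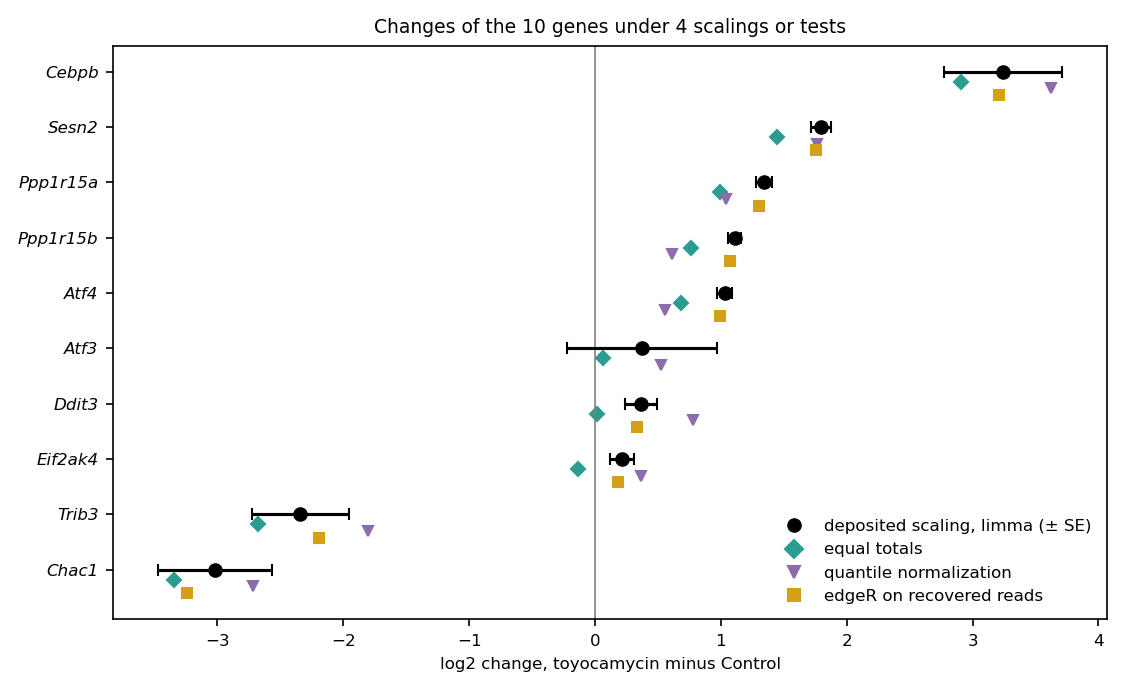
Log2 change of each of the 10 genes (horizontal axis, toyocamycin minus Control) with the deposited scaling (black, ± SE from limma), with equal totals, with quantile normalization and with edgeR on recovered reads. The 4 marks of each gene lie on the same side of 0 except for Eif2ak4, which turns to −0.13 with equal totals, and Ddit3 lies at 0.020 with equal totals; edgeR did not test Atf3.

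Atf4 (chromosome 15, 80255184 to 80257541, mm10) encodes the central transcription factor of the response. It had 3525, 3579 and 4013 normalised reads in the 3 Control samples and 7292, 7895 and 7493 with toyocamycin. Every toyocamycin sample was thus above every Control sample, and the mean rose 2.04-fold from 3705 ± 267 to 7560 ± 307 (SD, n = 3; log2 change 1.03, SE 0.057, adjusted p = 8.66e-13, limma). The log2 change was 0.68 with equal totals and 0.55 with quantile normalization. The genes with the most similar pattern, by root-mean-square distance of log2 values over the 6 samples, were Rabggtb (0.023), Nop58 (0.025) and Rplp0 (0.031). Their log2 changes were 1.01, 1.02 and 1.01. Rabggtb encodes a subunit of the enzyme that attaches lipid anchors to Rab proteins, Nop58 a core protein of box C/D small nucleolar RNPs and Rplp0 a ribosomal protein of the large subunit stalk.

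Ddit3 (chromosome 10, 127290774 to 127296288) encodes CHOP, a transcription factor that lies downstream of ATF4 and is known for promoting cell death under lasting stress. Its values were 247, 278 and 262 in Control and 363, 362 and 295 with toyocamycin. The lowest toyocamycin sample, replicate 3, lay just above the highest Control sample. The log2 change of 0.37 (SE 0.13, adjusted p = 0.0154, limma) no longer passed with equal totals (0.020). It also missed the threshold when Control replicate 1 (0.33), or replicate 1 (0.32) or 2 (0.32) of toyocamycin, was left out, and the adjusted p ran from 4.2e-05 to 0.895 over all alternatives. Relative to Atf4 in the same sample, Ddit3 was lower: the log2 ratio, which no size factor moves, was −3.82 ± 0.13 in Control and −4.48 ± 0.17 with toyocamycin (SD, n = 3). The groups did not overlap, and the exact two-sided permutation test gave p = 0.1, the smallest that 3 against 3 samples allow. GENCODE places exons of Mars, on the opposite strand, over exons of Ddit3, and no source used here says whether reads were counted by strand. Mars1, as the table names it, had 2289 ± 109 in Control and 1586 ± 28.3 with toyocamycin, a change opposite to that of Ddit3.

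Atf3 encodes a stress-inducible transcription factor that can repress or activate its targets and can pair with other leucine zipper proteins. It was barely detected, at 14, 4 and 10 reads in the Control samples and 5, 12 and 12 reads in the toyocamycin samples. In normalised reads this was 8.32 ± 4.6 in Control and 10.4 ± 3.99 with toyocamycin (SD, n = 3), with overlapping groups. The log2 change of 0.38 had an SE of 0.6 (adjusted p = 0.604, limma), so that no difference was detectable at this depth.

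Cebpb (chromosome 2, 167688915 to 167690418) encodes C/EBPβ, a leucine zipper factor that pairs with CHOP and ATF4. It had 12.7, 9.65 and 42.1 normalised reads in Control, from 14, 11 and 48 reads. With toyocamycin it had 133, 104 and 376 normalised reads. The groups did not overlap, but in each group the sample numbered 3 stood well above the other two. The mean rose from 21.5 ± 17.9 to 204.7 ± 149 (SD, n = 3; log2 change 3.24, SE 0.47, adjusted p = 2.68e-06, limma). The change was 2.69 without toyocamycin replicate 3, 3.86 without Control replicate 3 and 3.30 without both samples numbered 3, an alternative added after the data were seen.

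C/EBPβ is abundant in myeloid cells, so 15 markers of macrophages, dendritic cells and neutrophils were read beside it. Their summed level was 1351, 915 and 1084 in the Control samples and 1410, 1108 and 1610 with toyocamycin. The sum overlapped between groups. Toyocamycin replicate 3 had both the highest sum and the highest Cebpb value of the 6 samples, whereas in Control the highest sum was in replicate 1 and the highest Cebpb value in replicate 3. Of 13 markers tested, 1 was higher and 0 lower (limma; Cd68, encoding a lysosomal protein, rose), and 6 of 15 were above the floor in every sample. Lyz2 ran from 446 to 810 in Control and from 360 to 781 with toyocamycin, and the macrophage receptor gene Adgre1 did not exceed 2.64. The part of such cells in the Cebpb result was not tested.

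The gene with the most similar pattern to Cebpb was Hspa1a, which encodes an inducible HSP70 chaperone, at a distance of 0.29. It had 1.81, 1.76 and 7.02 in Control and 34.3, 24.6 and 55.9 with toyocamycin, highest in the sample numbered 3 of each group, a likeness by which it was chosen. Mustn1 (0.38) and the small nucleolar RNA gene Snora61 (0.47) followed, both at no more than 7.02 in any Control sample. In GENCODE an exon of Tmem189, on the opposite strand, overlaps an exon of Cebpb; Tmem189 was not analysed here.

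**Figure D3:**
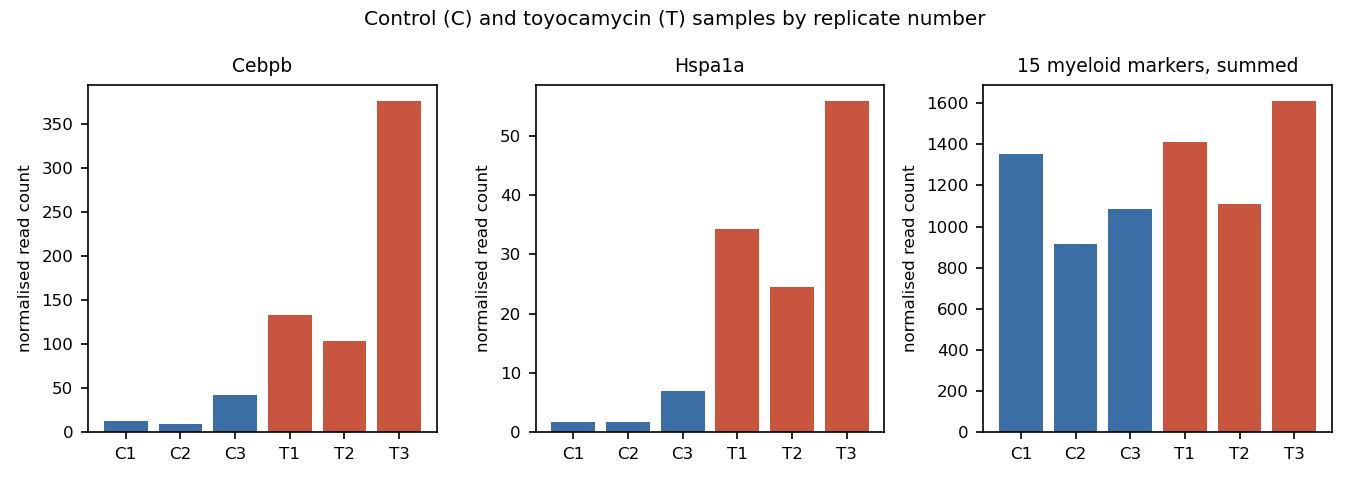
Normalised read counts (bars from 0) of Cebpb, of Hspa1a and of 15 myeloid markers summed, in Control samples 1 to 3 (C) and toyocamycin samples 1 to 3 (T). Cebpb and Hspa1a, which was chosen for its likeness to Cebpb, are highest in sample 3 of each group; the marker sum is highest in C1 within Control and in T3 with toyocamycin, and overlaps between groups.

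Eif2ak4 (chromosome 2, 118388618 to 118475234) encodes GCN2, the kinase that senses uncharged transfer RNA. It had 591, 630 and 653 in Control and 705, 825 and 652 with toyocamycin, so that toyocamycin replicate 3 fell within the Control range. The log2 change of 0.21 (SE 0.095, adjusted p = 0.0535, limma) missed the threshold. It passed without toyocamycin replicate 3 (0.29, adjusted p = 0.0151), without both samples numbered 3 (0.32), with quantile normalization (0.36) and with the filter raised to a mean of 10 (adjusted p = 0.0444), and it was −0.13 with equal totals.

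The other kinases changed in both directions. Eif2ak1, encoding HRI, rose 2.26-fold from 2248 ± 127 to 5089 ± 146, and Eif2ak3, encoding PERK, rose 1.62-fold from 1459 ± 102 to 2356 ± 70.3 (SD, n = 3). Eif2ak2, encoding PKR, fell 3.91-fold from 1318 ± 67.1 to 336.8 ± 9.83. The GCN2 activator gene Gcn1 fell 1.92-fold, while Impact, whose product restrains GCN2 through GCN1, rose 2.6-fold. Nck1, encoding an adaptor protein that limits eIF2α phosphorylation, rose 3.55-fold from 896.1 ± 95.4 to 3180 ± 191 (SD, n = 3), the largest rise in the list. Dele1 and Oma1, which relay mitochondrial stress to HRI, fell 2.3-fold and 1.5-fold, and Oma1 did not pass with quantile normalization (−0.25). Of 9 kinases and regulators other than Eif2ak4, 5 were higher and 4 lower by limma, with a median of 0.17, or −0.18 with equal totals. Dnajc3, whose product inhibits PERK and PKR, was called higher at 0.17 but lower with equal totals (−0.18).

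Of 8 genes for eIF2 and its exchange factor eIF2B, 6 were higher and 1 lower (limma; 5 and 2 with equal totals, median 0.55 or 0.20). The eIF2β gene Eif2s2 rose 3.04-fold from 2105 ± 37.7 to 6395 ± 260, and the eIF2B subunit gene Eif2b3 rose 3.12-fold. Eif2b5, encoding the catalytic subunit of eIF2B, fell 1.93-fold from 1485 ± 78.2 to 768.7 ± 35.4 (SD, n = 3). Eif2s1, encoding eIF2α itself, had a log2 change of 0.33 that was −0.020 with equal totals.

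Ppp1r15a and Ppp1r15b encode the stress-induced and the constitutive subunit, GADD34 and CReP, that direct protein phosphatase 1 to eIF2α. Ppp1r15a (chromosome 7, 45522916 to 45526268) had 1371, 1415 and 1502 in Control and 3390, 3854 and 3640 with toyocamycin, a rise of 2.54-fold (log2 change 1.34, SE 0.063, adjusted p = 4.91e-14, limma). Ppp1r15b (chromosome 1, 133131143 to 133139783) had 4763, 4794 and 4996 in Control and 9950, 11065 and 10458 with toyocamycin, a rise of 2.16-fold (log2 change 1.11, SE 0.052, adjusted p = 5.04e-14, limma). Neither gene overlapped between groups, and the constitutive subunit was the more abundant transcript per length in both groups.

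Per kilobase of annotated exon, Ppp1r15b was at 867 ± 22.6 in Control and 1875 ± 99.8 with toyocamycin, and Ppp1r15a at 487 ± 22.7 and 1235 ± 79.1 (SD, n = 3). The log2 ratio of Ppp1r15a to Ppp1r15b in each sample was −1.76 ± 0.031 in Control and −1.53 ± 0.018 with toyocamycin, and the groups did not overlap (difference 0.23; exact two-sided permutation p = 0.1, the smallest possible here). Of the 3 catalytic subunits of the phosphatase, Ppp1cb rose 2.81-fold from 5533 ± 265 to 15556 ± 1061 and Ppp1cc 1.48-fold, whereas Ppp1ca fell 1.41-fold. Tulp2, which overlaps an exon of Ppp1r15a on the opposite strand, had a mean of 0.59 in Control and 7.21 with toyocamycin.

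Sesn2 (chromosome 4, 132492032 to 132510501) encodes Sestrin2, a leucine sensor that restrains mTORC1 and is induced by ATF4 and by p53. It had 536, 611 and 670 in Control and 2036, 2150 and 2115 with toyocamycin. The groups lay far apart, and the mean rose 3.47-fold (log2 change 1.80, SE 0.08, adjusted p = 1.91e-14, limma). The other two sestrin genes rose as well, Sesn1 2.85-fold from 1169 ± 79.5 to 3337 ± 290 and Sesn3 1.58-fold from 2208 ± 80.5 to 3498 ± 181 (SD, n = 3).

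Trib3 (chromosome 2, 152337422 to 152344032) encodes a pseudokinase that binds AKT and, as a target of ATF4 and CHOP, feeds back on ATF4. It had 138, 170 and 215 in Control and 34.3, 14.4 and 71.6 with toyocamycin, from 26, 17 and 59 reads. All 3 toyocamycin samples were below the lowest Control sample, and replicate 3 stood well above replicate 2 among them. The mean fell from 174.3 ± 38.8 to 40.1 ± 29.1 (SD, n = 3; log2 change −2.34, SE 0.38, adjusted p = 1.5e-05, limma), with −1.77 without toyocamycin replicate 2 and −2.89 without toyocamycin replicate 3. Its paralogs moved less: Trib2 fell 1.46-fold from 568.2 ± 25.4 to 389.7 ± 16.6, and Trib1 rose from 39.2 ± 12.9 to 68.9 ± 14.1. The call of Trib1 (log2 change 0.84) was lost with equal totals (0.49), without Control replicate 1 (0.56) or toyocamycin replicate 3 (0.68) and without both samples numbered 3 (0.89).

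Chac1 (chromosome 2, 119351229 to 119354381) encodes a γ-glutamylcyclotransferase that breaks down glutathione and is a sensitive target of ATF4. It had 43.5, 73.7 and 91.3 in Control, from 48, 84 and 104 reads, and 10.6, 4.23 and 8.5 with toyocamycin, from 8, 5 and 7 reads. The groups did not overlap (log2 change −3.02, SE 0.45, adjusted p = 4.25e-06, limma), and the change ran from −3.34 to −2.52 over all alternatives. Against Atf4 in the same sample the log2 ratio of Chac1 went from −5.80 ± 0.47 to −10.03 ± 0.75 (SD, n = 3), a difference of −4.23 (exact two-sided permutation p = 0.1, the smallest possible here; adjusted over the 3 ratios tested, 0.1). The genes nearest to Chac1 in pattern were Psmc3ip (0.21), Pde4c (0.25) and 2210408F21Rik (0.29), with log2 changes of −3.20, −2.79 and −2.92.

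The paralog Chac2, whose product has the same activity at a lower rate, did not pass (88.2 ± 15.8 against 114.6 ± 16.5; adjusted p = 0.144, limma). Per kilobase of exon, Chac1 was at 42.5 ± 14.8 and Chac2 at 67.0 ± 12 in Control, and with toyocamycin at 4.74 ± 1.97 and 87.2 ± 12.6 (SD, n = 3). Of 6 genes of glutathione synthesis and turnover, 2 were higher and 3 lower by limma (median −0.23, or 0.28 with quantile normalization). Gclc and Gclm, the catalytic and modifier subunits of the rate-limiting enzyme of glutathione synthesis, rose 3.44-fold from 4599 ± 85.2 to 15814 ± 1025 and 2.49-fold. Gss, the second enzyme of the pathway, fell 1.78-fold and Oplah 2.89-fold. Ggct, called lower at −1.06, lost its call without Control replicate 1 (−1.11), Control replicate 3 (−0.69) or toyocamycin replicate 1 (−0.67), without both samples numbered 3 (−0.85) and with quantile normalization (−0.66).

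ATF4 acts at C/EBP-ATF response elements, composite sites that it occupies with C/EBP partners, and the promoters of the 2 genes that fell are shown for the sites they hold. RefSeq promoter sequence (GRCm38.p6, the same assembly as mm10) was matched for 9 of the 10 genes; Ppp1r15b had no entry. Windows of 250 bases before to 50 after the start were searched on both strands. The motifs were the element TGATGNAA, the cyclic AMP response element TGACGTCA and the endoplasmic reticulum stress element ERSE. A second spelling of the first element, TGNNGCAAT, was chosen after the sequences were read. Sequences run 5′ to 3′ on the gene's strand, and capitals mark the matches. They stop before the RefSeq start, or before annotated exon bases that precede it. The stretch of Atf3 lies inside the span of the annotated gene (191170296 to 191218039), not upstream of its first annotated exon. The windows of Atf3 and Ppp1r15a are shown for comparison, as those of a gene that did not pass and a gene that rose.
Chac1 (chr2:119350992-119351228, plus strand): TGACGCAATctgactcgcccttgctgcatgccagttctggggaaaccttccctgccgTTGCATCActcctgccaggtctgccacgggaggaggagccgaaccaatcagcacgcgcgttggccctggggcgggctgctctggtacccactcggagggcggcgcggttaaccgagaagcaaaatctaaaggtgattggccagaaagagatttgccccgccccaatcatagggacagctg
Trib3 (chr2:152344061-152344310, minus strand): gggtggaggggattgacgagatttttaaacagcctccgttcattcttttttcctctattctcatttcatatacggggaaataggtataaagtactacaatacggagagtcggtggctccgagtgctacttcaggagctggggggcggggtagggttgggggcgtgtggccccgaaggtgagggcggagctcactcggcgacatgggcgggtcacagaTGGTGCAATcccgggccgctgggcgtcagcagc
Atf3 (chr1:191183341-191183583, minus strand): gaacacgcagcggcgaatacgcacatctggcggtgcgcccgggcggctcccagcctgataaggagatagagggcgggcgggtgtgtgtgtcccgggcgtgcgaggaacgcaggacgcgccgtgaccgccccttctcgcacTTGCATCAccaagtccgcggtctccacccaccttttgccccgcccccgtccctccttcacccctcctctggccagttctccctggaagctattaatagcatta
Ppp1r15a (chr7:45526269-45526518, minus strand): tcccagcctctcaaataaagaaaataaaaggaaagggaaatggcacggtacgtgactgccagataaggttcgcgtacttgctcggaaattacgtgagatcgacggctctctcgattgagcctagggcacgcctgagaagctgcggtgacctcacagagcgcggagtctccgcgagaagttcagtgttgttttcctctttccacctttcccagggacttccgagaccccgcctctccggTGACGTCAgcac
Counted from the RefSeq start, Chac1 holds TGNNGCAAT at −250 to −242 and TGATGNAA, on the reverse strand, at −193 to −186. Trib3 holds TGNNGCAAT at −33 to −25, and TGATGNAA on the reverse strand at 14 to 21 after the start, outside the stretch shown. Atf3 holds TGATGNAA on the reverse strand at −110 to −103, and Ppp1r15a holds TGACGTCA at −12 to −5. No other match of these motifs was found in the windows of the 9 genes. Of 32851 promoter windows of 300 bases, 3.97% hold TGATGNAA, 2.12% TGNNGCAAT, 1.79% TGACGTCA and 0.119% the endoplasmic reticulum stress element. Because TGNNGCAAT was chosen after the sequences were read, its matches here cannot be weighed against its share. TGATGNAA was found in the windows of both genes that fell and of Atf3, and a match does not show that a factor binds there. A window without a match does not show that the gene lacks a site beyond the bases searched.

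Ratios to Atf4 within a sample set the genes side by side without any size factor. Relative to Atf4, Cebpb, Sesn2, Ppp1r15a and Ppp1r15b were higher with toyocamycin, and Ddit3, Eif2ak4, Trib3 and Chac1 lower, in each case without overlap between groups. The differences in log2 ratio were 2.30 for Cebpb, 0.77 for Sesn2, 0.31 for Ppp1r15a and 0.08 for Ppp1r15b. They were −0.66 for Ddit3, −0.82 for Eif2ak4, −3.41 for Trib3 and −4.23 for Chac1. The ratio of Atf3 overlapped between groups. Atf4 itself had a log2 change of 1.03, beside a median of −0.03 for all genes, so an unchanged gene falls relative to Atf4. For Ppp1r15b the groups barely parted, with 0.434 the highest ratio in Control and 0.448 the lowest with toyocamycin. The share of all genes whose ratio to Atf4 does not overlap was not computed.

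**Figure D4:**
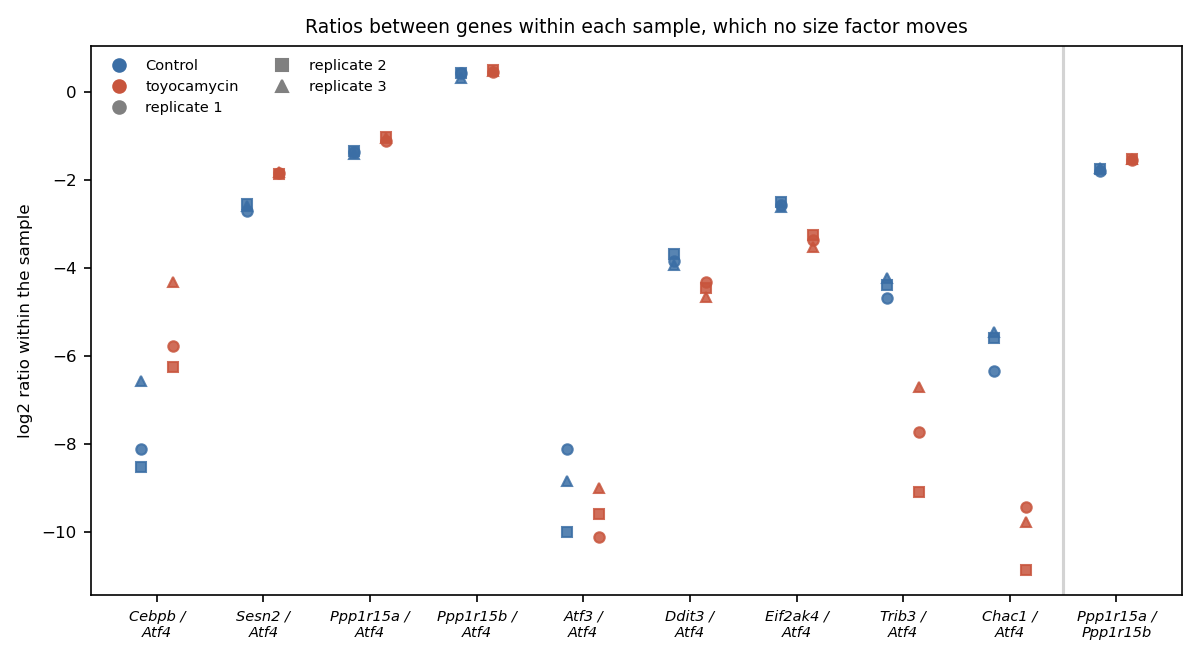
Log2 ratio (vertical axis) of each of 9 genes to Atf4, and of Ppp1r15a to Ppp1r15b, in every Control and toyocamycin sample, with marker shapes for the replicate number. The Chac1 to Atf4 ratio lies between −6.34 and −5.46 in Control and between −10.86 and −9.43 with toyocamycin, and only Atf3 overlaps between groups.

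Per kilobase of annotated exon, the order in Control was Atf4 (1571 ± 113), Ppp1r15b, Ppp1r15a, Sesn2 (174 ± 19.2), Ddit3 (153 ± 9.02), Eif2ak4 (83.8 ± 4.22), Trib3 (82.0 ± 18.3), Chac1, Cebpb (14.3 ± 11.9) and Atf3 (3.86 ± 2.14; SD, n = 3). The ranges over samples overlapped between Sesn2 and Ddit3, between Eif2ak4 and Trib3 and between Chac1 and Cebpb, so that these neighbours were not told apart. With toyocamycin Atf4 (3206 ± 130), Ppp1r15b, Ppp1r15a and Sesn2 (604 ± 16.8) were again at the top. Ddit3 (198 ± 22.7), Cebpb (136 ± 99.4) and Eif2ak4 (97.5 ± 11.9) followed, each overlapping its neighbour, and Trib3 (18.9 ± 13.7) came next, and Atf3 (4.85 ± 1.85) and Chac1 were lowest, with ranges that overlapped so that they were not told apart. These levels rest on GENCODE exon lengths, since no source used here names the annotation behind the counts.

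Genes of the wider response were read from lists chosen with earlier results of these data known. Of 22 ATF4 targets in amino acid metabolism and transport, 5 were higher and 15 lower by limma, with a median log2 change of −0.75 beside −0.03 for all genes, and −1.10 with equal totals. The mitochondrial PEP carboxykinase gene Pck2 fell 6.39-fold from 749.7 ± 45.3 to 117.3 ± 27.4. Cth, encoding cystathionine γ-lyase, had a log2 change of −2.79, from 28.4 ± 4.49 to 3.38 ± 1.47. With toyocamycin Cth rested on 2, 6 and 2 reads, below the floor of 3 reads in replicates 1 and 3. Pycr1, encoding an enzyme of proline synthesis, had a log2 change of −2.10, from 65.4 ± 18.2 to 14.3 ± 2.59. The asparagine synthetase gene Asns rose 1.78-fold from 1293 ± 79.1 to 2299 ± 41.7, the glutamine transporter gene Slc38a2 1.83-fold and the aspartate aminotransferase gene Got1 2.14-fold (SD, n = 3). Thus the list held members that rose and members that fell while Atf4 itself rose.

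Of 17 other reported ATF4 and CHOP targets, 15 were tested, and 9 were higher and 2 lower by limma (7 and 6 with equal totals, 8 and 5 with quantile normalization; median 0.51, or 0.16 with equal totals). The autophagy gene Map1lc3b rose 3.59-fold from 1723 ± 88.8 to 6183 ± 435, and Eif4ebp1, whose product inhibits cap-dependent translation, rose 2.63-fold from 363.2 ± 21.5 to 954.6 ± 38.2. Vldlr, encoding a lipoprotein receptor, rose from 18.4 ± 6.58 to 65.1 ± 29.8. Stc2 fell 3.33-fold from 201.8 ± 14.7 to 60.5 ± 10.7 and the stress-induced regulator gene Nupr1 2.4-fold (SD, n = 3). Ero1a, a CHOP target that encodes an oxidase of disulfide formation, was called higher at 0.25 but lower with equal totals (−0.095) and with quantile normalization (−0.090).

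Of 13 genes for cytosolic aminoacyl-tRNA synthetases and the tRNA exporter Xpot, 4 were higher and 6 lower by limma, but 1 was higher and 11 lower with equal totals and also with quantile normalization. Tars rose 2.12-fold, from 2948 ± 109 to 6249 ± 157, and stayed higher under each scaling. Lars fell 1.73-fold, Wars1 1.66-fold and Mars1 1.44-fold.

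Among 17 leucine zipper genes whose products can pair with ATF4, CHOP, ATF3 or C/EBPβ, 6 were higher, 6 lower and 5 did not pass by limma (median 0.14, or −0.21 with equal totals). Fosl2 rose 6.19-fold from 4693 ± 166 to 29038 ± 1108, Atf2 2.46-fold and Cebpg, a C/EBP that forms the usual heterodimer with ATF4, 2.35-fold. Fos fell 6.26-fold from 6431 ± 225 to 1027 ± 155, Jund 2.07-fold and Jun 1.88-fold (SD, n = 3). Per kilobase, Cebpg was at 223 ± 14.5 in Control and 525 ± 6.14 with toyocamycin, above Cebpb in both groups. Cebpa had 13.6 ± 3.52 and 15.9 ± 7.43 normalised reads and Cebpd 147.1 ± 20.8 and 116.7 ± 20.2, and neither passed.

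**Figure D5:**
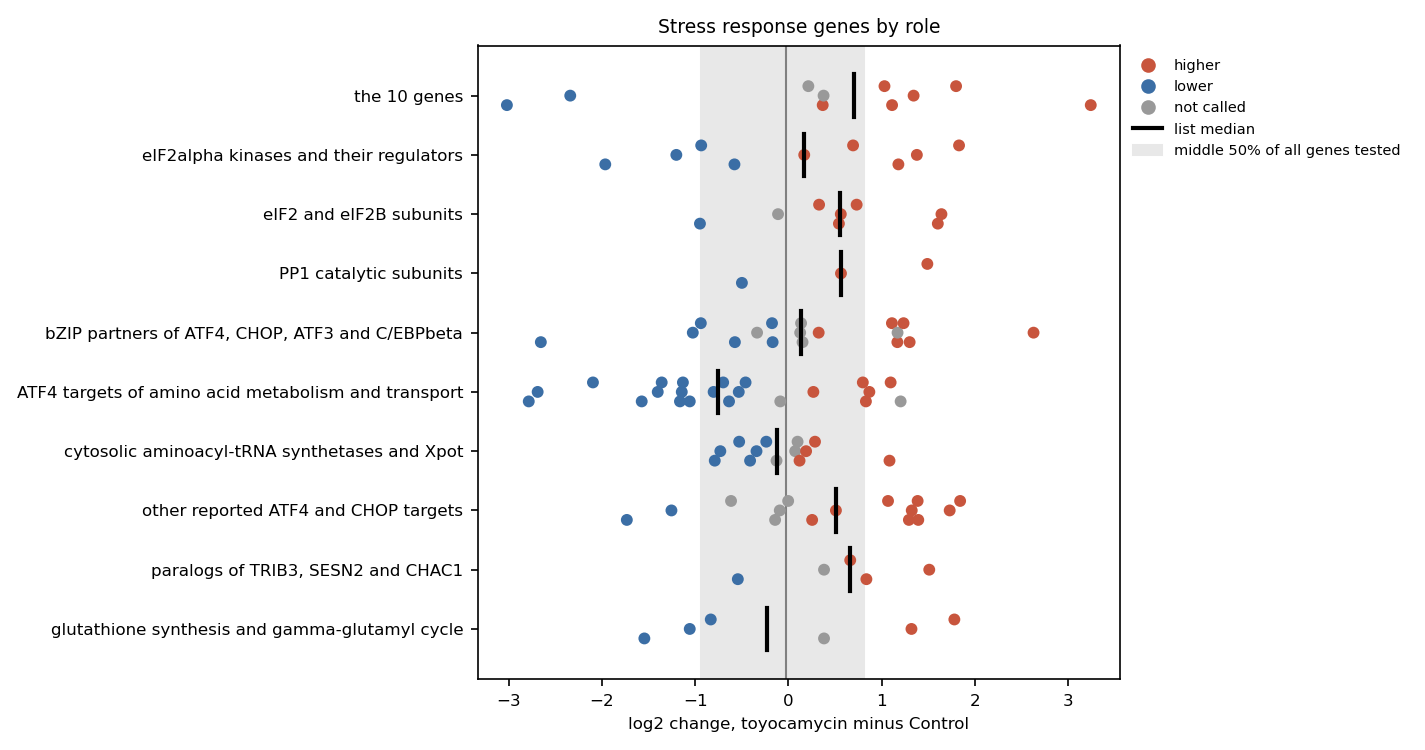
Log2 change (horizontal axis, toyocamycin minus Control, deposited scaling) of each tested gene by role, with calls in colour, the list median as a black line and the middle 50% of all genes tested in grey. Amino acid targets of ATF4 lie mostly to the left (15 lower of 22), while the other ATF4 and CHOP targets lie mostly to the right (9 higher of 15).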

How the data were processed

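RNA-seq libraries of 3 Control and 3 toyocamycin samples were analysed, grouped per the labels. The submitters' processing notes name cutadapt 4.7, FastQC and mm10; the aligner, counter, strand setting and annotation are not stated there. Although FPKM stands in the name of the deposited table, the authors' values are a size-factor normalised signal: within 0.01 reads, 100% of values in each column were whole multiples of the value of 1 read, which gave back reads per gene and size factors of 0.757 to 1.18. Totals were 22.3 M to 36.7 M reads; 3 reads equal 2.54 to 3.96 normalised reads by sample, a floor that covers counting error only.

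Log2(value + 1) of genes with a mean of at least 1 (16223) was compared with limma-trend (limma 3.58.1 in R 4.3.3; two-sided, Benjamini-Hochberg adjusted, threshold 0.05). The pseudocount understates changes of low genes. Folds are ratios of group means. Alternatives changed scaling, pseudocount (0.5, 5), filter, replicate block or samples, or used edgeR 4.0.16 or DESeq2 1.42.0 on recovered reads. The limma and edgeR scripts were tested on simulated data. The 10 genes and the lists were chosen with earlier results of these data known. Named from each list are the called genes with the 3 highest and 3 lowest changes, and any gene of lists of up to 9. The 3 genes nearest in pattern to Atf4, Chac1 and Cebpb are named too. Mars1, Cebpa, Cebpd, Lyz2, Adgre1, Cd68, Kit, Cpa3 and Fcer1a were named after their values were seen. So were Prf1, Cd79b, Lgals4, Col1a2, Pecam1, Cd3d, Cd3e, Cd3g, Il22 and Il17a. Positions and exon lengths are from GENCODE M21.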

Additional observations from a re-analysis of the deposited data

How the results depend on the processing

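Of 158 values of the 10 genes under alternative settings, 150 kept their side of the threshold; 4 of Ddit3 lost the call and 4 of Eif2ak4 gained it. The sign turned in a pair of values that did not pass, Atf3 without Control replicate 2 (−0.076) and Eif2ak4 with equal totals (−0.13). The count of the 10 genes called higher was 5 to 7 and that called lower was 2 in all alternatives. Among the other named genes, 5 that were called higher turned negative: with equal totals and with quantile normalization, respectively, Dnajc3 had log2 changes of −0.18 and −0.32, Eif2s1 −0.020 and −0.085, Gars −0.16 and −0.30, Nars −0.064 and −0.22, and Ero1a −0.095 and −0.090. Of these, both values of Eif2s1 and the equal-totals value of Nars did not pass (adjusted p = 0.758, 0.187 and 0.143, limma); the cause was not tested. Correlations of deviations across genes were −0.03, 0.05 and −0.09 between same-numbered samples, and ran from −0.19 to 0.18 between samples of different number. With that spread they cannot decide whether the numbers pair the samples. With the replicate block, 5272 genes were higher and 5298 lower, and 6 and 2 of the 10 genes, as without it. Paired by number, the log2 ratio differences were −4.23, −0.66 and 0.23 for Chac1 to Atf4, Ddit3 to Atf4 and Ppp1r15a to Ppp1r15b (exact sign-flip p = 0.25, the smallest that 3 pairs allow). Without 1 sample at a time these ran from −4.52 to −3.81, from −0.74 to −0.57 and from 0.21 to 0.25. Depth limits Atf3, Chac1 with toyocamycin and Cebpb in Control, which rest on 4 to 48 reads a sample. edgeR's filter removed Atf3, as did the filter at a mean of 10.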

Other observations

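Within Control, 8 of the 10 genes were highest in replicate 3 (Atf4, Cebpb, Chac1, Eif2ak4, Ppp1r15a, Ppp1r15b, Sesn2 and Trib3), whereas 37.4% of all genes tested were highest there. With toyocamycin, 5 of the 10 were highest in replicate 2 (Atf4, Eif2ak4, Ppp1r15a, Ppp1r15b and Sesn2), where 47% of all genes were highest, and Cebpb, Trib3 and Atf3 were highest in replicate 3, where 24.8% of all genes were. Trib3 in toyocamycin replicate 3 (71.6) stood above replicate 2 (14.4), while Chac1, the other gene that fell, was at 8.5 and 4.23 in the same samples.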
